A study of Mus musculus with 7 samples.

Results

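The regions described here are Srsf3 peaks that stopped exactly at an edge of an internal exon. They were chosen by position alone: a distinct peak interval belonged to the set if its start or end lay exactly 1 nt after, in genome coordinates, the start or end of an internal exon of at most 300 nt in the longest coding transcript of its gene. Over both peak lists 2788 of 14721 distinct intervals met this rule. They were 1819 of 8384 peaks in the PDGF-AA list (21.7%, Wilson 95% interval 20.8 to 22.6%) and 1013 of 6396 peaks in the untreated list (15.8%, 15 to 16.8%). The 1 nt step reflects the deposited intervals, whose edges lie 1 nt to the right of the annotation on both strands, so these peaks ended on the last or began on the first base of an exon.

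Srsf3 binding was profiled by enhanced crosslinking and immunoprecipitation (eCLIP), in which RNA crosslinked to a protein by ultraviolet light is recovered with an antibody and sequenced. The serum-starved iMEPM cells belong to an immortalized line made from embryonic palatal mesenchyme of the mouse, the tissue that fills the shelves of the secondary palate. They were stimulated for 1 h with PDGF-AA (10 ng/mL), which acts through the receptor PDGFRα, or were left untreated. The Srsf3 immunoprecipitation was represented by 1 PDGF-AA library, titled replicate 2, and by 2 untreated libraries, beside 2 input and 2 IgG libraries that were not analysed here. Each condition had 1 pooled peak list, so no difference between the lists had a replicate check, and ligand, number of libraries and depth cannot be told apart. The lists carried no scores or read counts, so the depth behind each peak is unknown. All Wilson intervals cover counting error only.

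Srsf3 is a member of the serine/arginine-rich (SR) protein family, which bind exons and help the spliceosome recognise the splice sites on either side. An internal exon has an upstream edge, where the 3′ splice site of the preceding intron ends, and a downstream edge, where the 5′ splice site of the following intron begins. In pre-mRNA each edge adjoins an intron, whereas in spliced mRNA the downstream edge of an exon adjoins the upstream edge of the exon that follows it. An RNA fragment that spans such a junction aligns to the genome in 2 pieces that stop at facing exon edges.

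The 10 junctions named here held a peak at both facing edges in both lists and had the widest pieces of all such junctions. The following sequences join the deposited PDGF-AA peaks of 5 of them as they adjoin in spliced mRNA, on GRCm39 and on the transcript strand, with the piece on the upstream exon in lower case and the piece on the downstream exon in capitals. They are shown because the boundary between the cases is the exon junction at which each pair of peaks stopped.
Fn1 exons 36 and 37: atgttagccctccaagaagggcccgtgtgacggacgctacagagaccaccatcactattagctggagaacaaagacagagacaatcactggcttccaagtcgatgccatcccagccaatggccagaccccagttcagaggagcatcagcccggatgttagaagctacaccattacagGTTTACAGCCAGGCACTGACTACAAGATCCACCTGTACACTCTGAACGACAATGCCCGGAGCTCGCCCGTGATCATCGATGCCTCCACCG
Myh9 exons 23 and 24: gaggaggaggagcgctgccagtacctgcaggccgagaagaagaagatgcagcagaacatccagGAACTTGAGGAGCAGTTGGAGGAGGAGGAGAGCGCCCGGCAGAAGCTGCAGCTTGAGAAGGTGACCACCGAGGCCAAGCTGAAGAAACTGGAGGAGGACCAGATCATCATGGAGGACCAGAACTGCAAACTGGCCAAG
Cald1 exons 8 and 9: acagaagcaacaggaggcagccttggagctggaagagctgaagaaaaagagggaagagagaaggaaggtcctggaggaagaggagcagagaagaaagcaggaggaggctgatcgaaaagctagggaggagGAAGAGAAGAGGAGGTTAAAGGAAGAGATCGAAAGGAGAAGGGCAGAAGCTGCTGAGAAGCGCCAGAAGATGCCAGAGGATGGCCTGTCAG
Map4k4 exons 12 and 13: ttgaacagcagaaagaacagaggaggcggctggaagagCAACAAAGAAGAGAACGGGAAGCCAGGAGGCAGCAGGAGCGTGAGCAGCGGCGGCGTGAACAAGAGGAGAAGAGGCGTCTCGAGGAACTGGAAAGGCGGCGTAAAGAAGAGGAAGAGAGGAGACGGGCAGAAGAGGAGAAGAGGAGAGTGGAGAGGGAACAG
Sfpq exons 6 and 7: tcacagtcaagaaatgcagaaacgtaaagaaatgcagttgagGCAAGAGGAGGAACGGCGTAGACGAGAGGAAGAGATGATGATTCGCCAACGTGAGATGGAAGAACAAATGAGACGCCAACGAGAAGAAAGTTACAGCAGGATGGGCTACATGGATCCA

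The Fn1 peaks lay at chr1:71639450-71639626 and chr1:71638763-71638852 on the minus strand. They covered exon 36 (177 nt) and exon 37 (90 nt) of fibronectin, a matrix glycoprotein, from end to end. In the untreated list the piece at the downstream edge of exon 36 was 70 nt wide, while exon 37 was again covered whole. The Myh9 peaks lay at chr15:77659275-77659337 and chr15:77658758-77658895 on the minus strand, in the heavy chain of a non-muscle myosin. The peak on exon 24 covered all 138 nt of that exon in both lists, and a further pair joined exon 24 to exon 25, with pieces of 27 nt (PDGF-AA) and 28 nt (untreated) on exon 25. Myh9 was therefore paired across 2 successive junctions in each list.

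The Cald1 peaks lay at chr6:34732705-34732834 and chr6:34734920-34735010 on the plus strand, in the gene of caldesmon, an actin-binding regulator of contractility. Map4k4, which encodes a Ste20-type kinase, carried peaks at chr1:40029423-40029460 and chr1:40036182-40036343 on the plus strand, and the second covered all 162 nt of exon 13. Sfpq, which encodes a nuclear splicing and paraspeckle protein, carried peaks at chr4:126919980-126920021 and chr4:126920563-126920680 on the plus strand, the second again covering a whole exon of 118 nt. Purines made up 81.5% of the joined Map4k4 sequence, 79.6% of Cald1, 71.2% of Sfpq, 68.7% of Myh9 and 51.3% of Fn1. The hexamer GAAGAA occurred 3 times in the joined Myh9 pieces, 2 times each in those of Cald1 and Sfpq and not in those of Map4k4 and Fn1. These joined sequences thus differed among themselves, with Fn1 the least purine-rich of the 10 junctions. The other 4 genes of the 10 junctions were Dync1h1 (a dynein heavy chain), Mink1 (a Ste20-type kinase), Itpr3 (a calcium channel of the endoplasmic reticulum) and Fosl2 (a transcription factor of the AP-1 family), where the junction joined exon 3 to the first bases of the last exon.

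Edges of peaks were concentrated at a single base. At the downstream exon edge, 1046 PDGF-AA and 725 untreated peaks stopped at the 1 nt position. The neighbouring positions, 0 and 2 nt, held 27 and 29 peak edges with PDGF-AA and 9 and 19 without ligand. At the upstream edge, 859 PDGF-AA and 350 untreated peaks stopped at 1 nt, against 9 and 7 at the neighbouring positions with PDGF-AA and 6 and 6 without ligand. Both strands contributed, with 900 members on the plus and 919 on the minus strand with PDGF-AA and 471 and 542 without ligand, where the plus-strand share was 46.5% (43.4 to 49.6%).

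**Figure D1:**
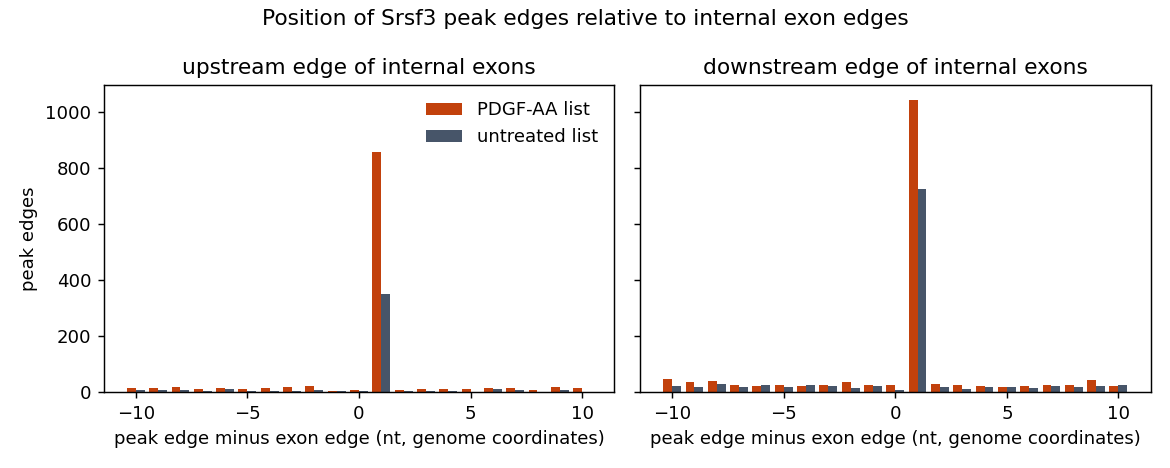
Number of Srsf3 peak edges (y axis) at each distance in nt from an internal exon edge (x axis, genome coordinates, -10 to 10 nt) for the PDGF-AA list and the untreated list, upstream exon edges in the left panel and downstream exon edges in the right panel. Both panels have 1 tall bar per list at 1 nt, 859 and 1046 peak edges for PDGF-AA and 350 and 725 for untreated.

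Stopping at an edge was common among peaks on these exons. Of the peaks that overlapped an internal exon of at most 300 nt, members made up 1819 of 4342 (41.9%) with PDGF-AA and 1013 of 2396 (42.3%) without ligand. These shares were close, and their intervals overlapped (40.4 to 43.4% and 40.3 to 44.3%). What differed was the remainder. Peaks that lay inside the exon and touched no edge made up 2422 (55.8%) with PDGF-AA and 950 (39.6%) without ligand, and peaks that reached past an exon edge 101 (2.33%) and 433 (18.1%). Members that ran past another exon edge were counted as members only. The higher share of members among all PDGF-AA peaks thus went with a higher share of peaks on these exons, 51.8% of PDGF-AA and 37.5% of untreated peaks.

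The downstream edge was used more than the upstream edge in both lists, and more so without ligand. In the PDGF-AA list 959 members (52.7%) stopped at the downstream edge only, 772 (42.4%) at the upstream edge only and 87 (4.78%) at both edges, covering the exon from end to end. In the untreated list these were 662 (65.4%), 287 (28.3%) and 63 (6.22%). In each list 1 further peak met the rule only crosswise, its start against an exon end or the reverse. Counted as exon edges, 1042 of 1899 occupied edges in the PDGF-AA list (54.9%, 52.6 to 57.1%) and 724 of 1074 in the untreated list (67.4%, 64.6 to 70.1%) were downstream edges. These intervals did not overlap.

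Many members had a partner, that is, another peak of the same list that stopped exactly at the facing edge of the adjacent exon. A partner was present for 960 of 1819 members in the PDGF-AA list (52.8%, 50.5 to 55.1%) and for 402 of 1013 in the untreated list (39.7%, 36.7 to 42.7%). Of occupied downstream edges, 484 of 1042 (46.4%) were partnered with PDGF-AA and 207 of 724 (28.6%) without ligand. At upstream edges the shares were close, 490 of 857 (57.2%) with PDGF-AA and 207 of 350 (59.1%) without ligand. A partner of a downstream edge lies at an upstream edge, so the partnered counts of both sides are nearly equal by construction. The shares by side thus follow from how occupied edges were split between the sides. They cannot place the difference in partnering at either side. Members that covered a whole exon were partnered in 62 of 87 cases with PDGF-AA and 41 of 63 without ligand, and 15 and 12 of them had a partner on each side. Peaks inside exons had a peak at a facing edge of an adjacent exon in 4% of PDGF-AA and 4.32% of untreated cases.

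**Figure D2:**
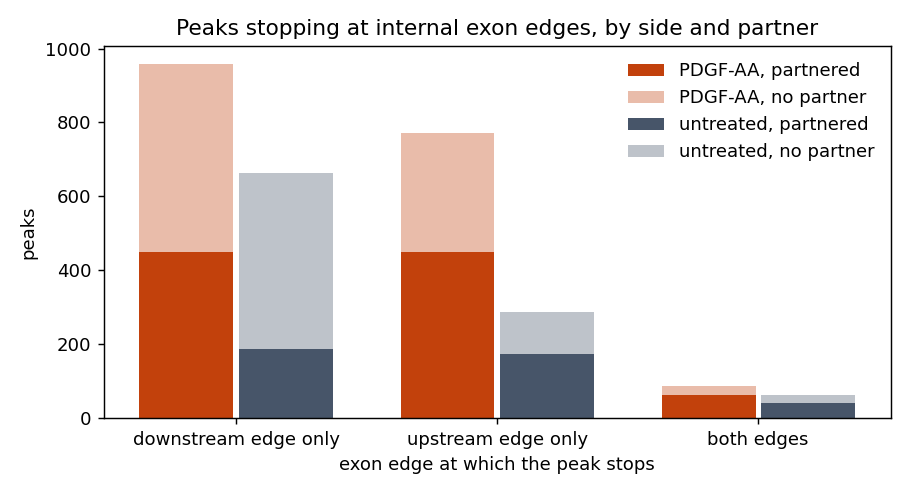
Number of peaks (y axis) that stopped at the downstream edge only, the upstream edge only or both edges of an internal exon (x axis), PDGF-AA bars left of untreated bars, with partnered peaks in full colour and those without a partner in pale colour. At the downstream edge 449 of 959 PDGF-AA and 187 of 662 untreated peaks were partnered, and at the upstream edge 449 of 772 and 174 of 287.

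The partner sat on the adjacent exon rather than on exons farther away. Of occupied downstream edges, 46.4% (PDGF-AA) and 28.6% (untreated) faced a peak that began at the upstream edge of the next exon. Only 4.03% and 2.62% had such a peak 2 exons on, and 2.98% and 2.35% had one on the preceding exon. The same exon carried an upstream-edge peak in 9.6% of PDGF-AA (100) and 9.81% of untreated cases (71). Most of these were single peaks that covered the whole exon, of which there were 87 with PDGF-AA and 63 without ligand. Among downstream edges without a partner, the next exon held some other peak in 60 of 558 cases in the PDGF-AA list (10.8%) and in 42 of 517 in the untreated list (8.12%).

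**Figure D3:**
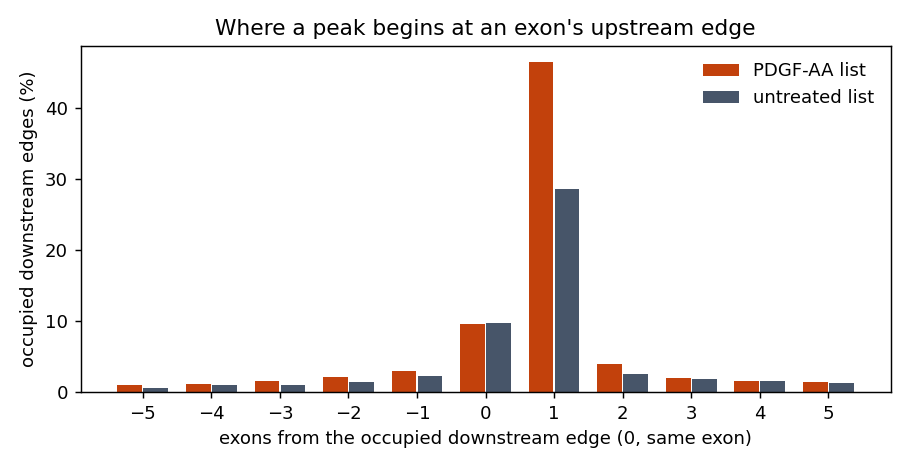
Share of occupied downstream exon edges (y axis, %) for which a peak of the same list began at the upstream edge of the exon that many places away in the transcript (x axis, exons), for the PDGF-AA and untreated lists. The tallest bars stand at the next exon, 46.4% for PDGF-AA and 28.6% for untreated, and all bars other than those at 0 and 1 exon stay at or below 4.03%.

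The partnered peaks formed 526 pairs in 453 genes with PDGF-AA and 219 pairs in 188 genes without ligand. Each piece of a pair was about as wide as a whole peak inside an exon. The upstream piece had a median width of 41 nt (PDGF-AA) and 42 nt (untreated), the downstream piece 43 and 39 nt, and interior peaks 45 and 39 nt. Summed over both pieces, pairs spanned a median of 87 nt (30 to 267 nt) with PDGF-AA and 83 nt (39 to 220 nt) without ligand. Neither exon took the wider piece consistently: it lay on the upstream exon in 48.3% of PDGF-AA and 51.6% of untreated pairs. The introns between the pieces ranged from 70 to 339689 nt (median 751 nt) with PDGF-AA and from 68 to 79484 nt (median 498 nt) without ligand. Introns after partnered downstream edges had medians of 694 nt (PDGF-AA) and 461 nt (untreated), after unpartnered ones 719 and 546 nt, and after exons of the same genes with no peak at that edge 882 and 724 nt. In 20 PDGF-AA and 13 untreated cases a pair was followed by another pair at the next junction.

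Members without a partner were somewhat wider, with a median of 49 nt against 42 nt for partnered members with PDGF-AA and 45 against 40 nt without ligand. All members ranged from 7 to 177 nt (median 45 nt) with PDGF-AA and from 7 to 158 nt (median 43 nt) without ligand.

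Peaks that stopped at the downstream edge were set beside peaks that ran through it. Of PDGF-AA peaks that covered the last base of an internal exon, 1049 of 1141 (91.9%, 90.2 to 93.4%) stopped there and 92 (8.06%) reached into the intron. Of untreated peaks, 727 of 1171 (62.1%, 59.3 to 64.8%) stopped there and 444 (37.9%) reached into the intron. The reach exceeded 5 nt for 53 PDGF-AA and 387 untreated peaks, so most untreated crossings were not a matter of a few bases. The share of such peaks that stopped at the edge thus differed between the lists. The totals of 1141 and 1171 came from lists of 8384 and 6396 peaks and are not the same sites. Only 331 downstream edges were occupied in both lists, 31.8% of those with PDGF-AA and 45.7% of those without ligand. No such gap appeared at the upstream edge, where 863 of 886 PDGF-AA peaks (97.4%) and 352 of 360 untreated peaks (97.8%) stopped.

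**Figure D4:**
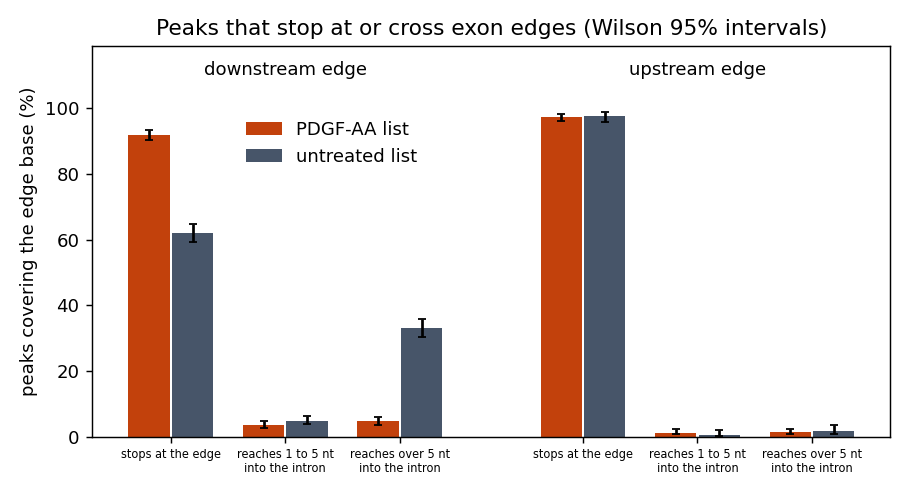
Share of peaks covering the exon base at an edge (y axis, %) that stopped at the edge or reached 1 to 5 nt or over 5 nt into the intron (x axis), for downstream edges on the left and upstream edges on the right, PDGF-AA bars left of untreated bars, with Wilson 95% intervals as error bars. At the downstream edge 91.9% of PDGF-AA and 62.1% of untreated peaks stopped, whereas at the upstream edge both lists stood above 97%.

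Over the whole lists, 444 untreated and 92 PDGF-AA peaks ran through a downstream edge into the intron, members that stopped at another edge included. Of the 711 downstream edges occupied in the PDGF-AA list alone, 45 (6.33%) had an untreated peak that ran on into the intron. The reverse was seen at 9 of the 393 edges (2.29%) occupied in the untreated list alone. The 4 edges with the longest untreated reach follow as 15 exon bases in capitals and 15 intron bases in lower case (GRCm39, transcript strand). They were singled out after their values were seen, and they let the 5′ splice site be read where the PDGF-AA peak ended.
Vegfa exon 3: AACATCACCATGCAGgtgggcacctgcggc
Hdac5 exon 5: AGAAGAGCAAAGAGAgtaaggcccgtgggc
Plec exon 4: TCAGGAGACAGCCTGgtatgtgtgtctgtc
Vcf1 exon 2: TCCTGGGACACAGAGgtaggcagagtggcc

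In Vegfa, which encodes a vascular growth factor, the PDGF-AA peak at chr17:46336274-46336334 stopped at the end of exon 3, and the untreated peak at chr17:46336230-46336304 ran 44 nt into the intron. In Hdac5, which encodes a class II histone deacetylase, the PDGF-AA peak was chr11:102097457-102097485 and the untreated peak, chr11:102097425-102097492, reached 32 nt further. The untreated reach was 29 nt at Plec, which encodes the cytoskeletal linker plectin, and 28 nt at Vcf1. All 4 genes lie on the minus strand, and every window had the GT that opens an intron directly after the exon.

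Exon edges were compared between the lists. In all, 546 edges were occupied in both, 28.8% (26.8 to 30.8%) of PDGF-AA edges and 50.8% (47.9 to 53.8%) of untreated edges. The recurring share was higher for partnered than for unpartnered edges in both lists. Of partnered downstream edges, 40.1% with PDGF-AA and 64.7% without ligand were occupied in the other list, against 24.6% and 38.1% of unpartnered downstream edges. At upstream edges these shares were 33.1% (PDGF-AA) and 67.1% (untreated) with a partner and 14.4% and 53.1% without. As pairs, 133 junctions carried both pieces in both lists, 25.3% of the PDGF-AA and 60.7% of the untreated pairs.

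Since the rule fixed the end at the exon edge, only the far ends of these peaks were free to differ. Among the 546 edges occupied in both lists, 70 (12.8%) carried identical intervals in both lists and 201 (36.8%) had far ends within 5 nt of each other, with a median difference in width of 9.5 nt. Among the 133 junctions, all 4 ends agreed between the lists only at those joining exons 8 to 9 and 9 to 10 of Col6a2. Overlap by at least 1 nt with a peak of the other list was found for 39.5% of PDGF-AA and 60.8% of untreated members, against 20.2% and 56.2% of peaks inside exons. Peaks that reached past an exon overlapped a peak of the other list in 50.5% of PDGF-AA cases and 27.5% of untreated cases. Of the 711 downstream edges occupied in the PDGF-AA list alone, 565 (79.5%) lay in exons with no untreated peak at all, and of the 393 occupied in the untreated list alone, 287 (73%) lay in exons with no PDGF-AA peak.

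Members fell in 1111 of 4491 bound genes with PDGF-AA and 661 of 3585 without ligand, with 430 genes in both. Most of these genes had 1 member (655 and 446 genes), while 120 and 65 had 3 or more. Among the gene groups examined, the matrix groups and the actin cross-linkers had the highest shares of edge-stopping peaks in the PDGF-AA list. In collagen genes, 57 of 100 PDGF-AA peaks (57%, 47.2 to 66.3%) and 66 of 111 untreated peaks (59.5%, 50.2 to 68.1%) were members, beside 21.7% and 15.8% of all peaks. For fibronectin, fibrillins and latent TGF-beta binding proteins these were 28 of 55 (PDGF-AA) and 16 of 34 (untreated), and for laminins, proteoglycans and other matrix proteins 29 of 59 and 12 of 45. Single genes weighed heavily in the PDGF-AA list, with Fn1 giving 12 of those 28 members and Hspg2 13 of those 29. In the untreated list the laminin group had 26.7%, below the 47.1% of chaperone genes. For actin cross-linkers and non-muscle myosins they were 60 of 126 and 40 of 95. All peaks include those outside internal exons of at most 300 nt, and among peaks overlapping such exons the member share was 41.9% (PDGF-AA) and 42.3% (untreated). How many peaks of each gene group lay on such exons was not counted, so the group shares also depend on gene structure. Peaks of 1 gene share their transcript, so the group values are counts with no test attached.

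In RNA-processing, translation and motor genes the PDGF-AA share was 31.1 to 39.8%. Members made up 51 of 164 PDGF-AA and 24 of 102 untreated peaks of hnRNP and core spliceosome genes, 6 of 18 and 3 of 12 of SR protein and Tra2 genes, and 37 of 93 and 19 of 64 of ribosomal protein and translation factor genes. Kinesin, dynein and myosin motor genes had 32 of 86 and 18 of 55, and chaperone and protein folding genes 8 of 24 and 8 of 17. In the remaining groups the PDGF-AA share was 27.3% or less. Endosome, Rab and coat protein genes had 28 of 148 PDGF-AA and 19 of 95 untreated peaks, integrins 6 of 22 and 1 of 16, plakins and nesprins 9 of 61 and 4 of 49, and PI3K, Akt and mTOR pathway genes 8 of 42 and 2 of 18. Among PDGF and FGF receptors and ligands, 4 of 19 PDGF-AA peaks were members, all of them in Fgfr1, and 0 of 20 untreated peaks (Wilson upper limit 16.1%).

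Col6a2, a chain of the microfibril-forming type VI collagen, held a run of successive pairs. Of its peaks, 7 of 8 with PDGF-AA and 6 of 6 without ligand stopped at exon edges, and 9 edges were occupied in both lists. The run over exons 7 to 10 follows as its PDGF-AA peaks adjoin in spliced mRNA, with exons 7 and 9 in lower case and exons 8 and 10 in capitals (chr10, minus strand, GRCm39), because each of exons 8, 9 and 10 was covered from end to end in both lists.
Col6a2 exons 7 to 10: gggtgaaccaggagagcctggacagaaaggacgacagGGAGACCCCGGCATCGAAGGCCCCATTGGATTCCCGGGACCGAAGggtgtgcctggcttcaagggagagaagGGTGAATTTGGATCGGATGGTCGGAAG

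These exons were 45 nt (chr10:76447627-76447671), 27 nt (chr10:76447251-76447277) and 27 nt (chr10:76446998-76447024) long. The piece on exon 7 was 37 nt wide with PDGF-AA and 45 nt without ligand. A further pair joined exon 14 to exon 15, with 40 and 68 nt with PDGF-AA and 40 and 56 nt without ligand. In the PDGF-AA list, exon 5 of 21 nt was covered whole as well, with no untreated peak at its edges.

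Fn1 had 12 members of 20 peaks with PDGF-AA and 10 of 12 without ligand, with 9 edges occupied in both. They clustered over exons 35 to 39. In the PDGF-AA list pieces there were 34 nt at the end of exon 35, the whole of exons 36 and 37, 36 nt at the start of exon 38 and 99 nt at the start of exon 39, where the peak ran past the 90 nt of that exon. In the untreated list exon 39 was covered from edge to edge, and exon 38 had separate peaks of 26 nt at its upstream and 66 nt at its downstream edge. Col1a1, the major chain of fibrillar type I collagen, had 8 members in each list, of 10 PDGF-AA and 9 untreated peaks. The 54 nt exon 11 was covered whole in both, and 7 edges were occupied in both.

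**Figure D5:**
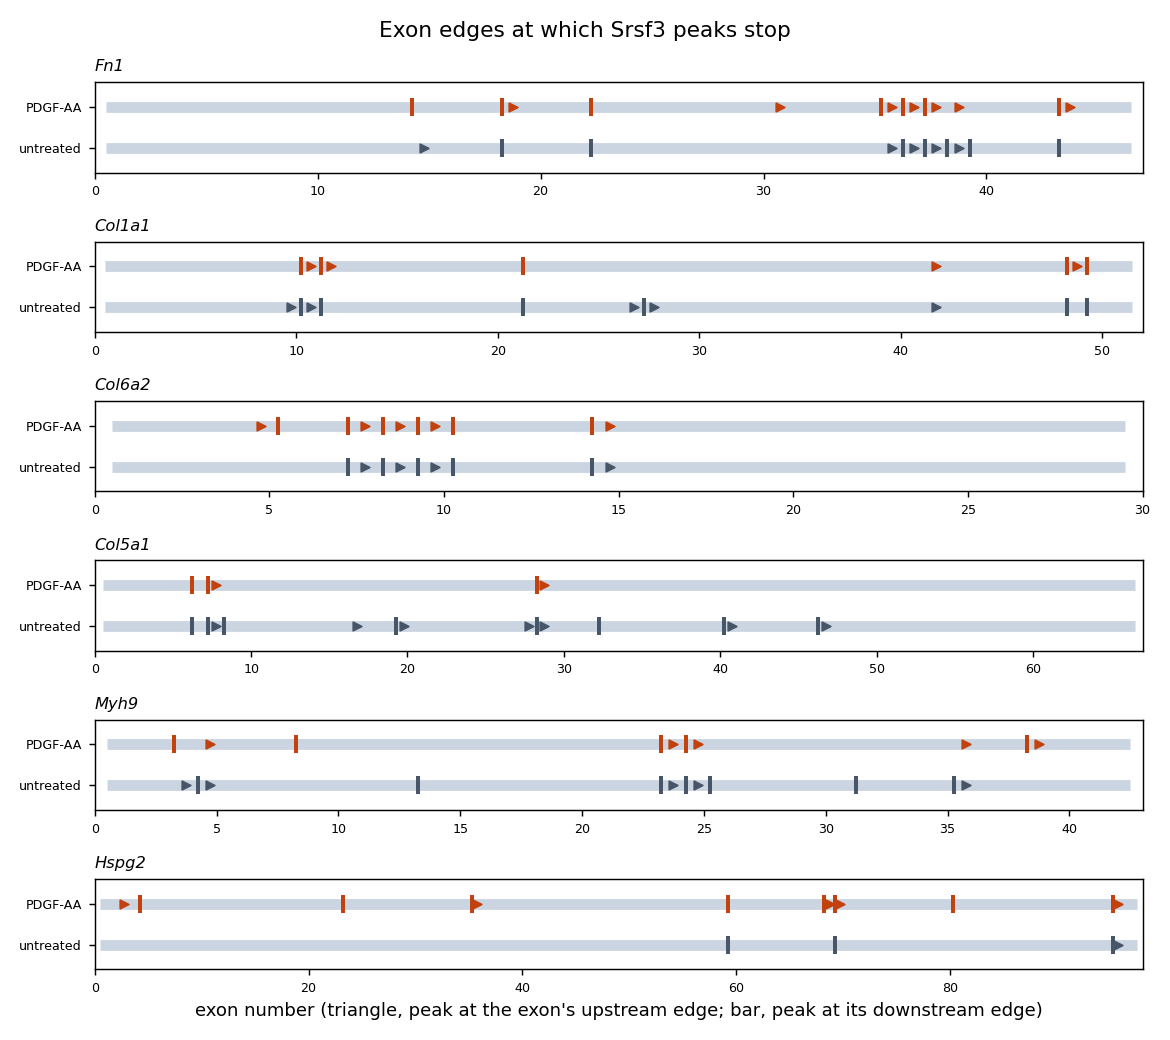
Exon edges at which a peak stopped in 6 genes, with exon number along the x axis and the PDGF-AA list above the untreated list in each panel, triangles for the upstream edge and bars for the downstream edge of an exon. A bar followed by a triangle at the next exon is a partner pair, as over exons 7 to 10 of Col6a2 in both lists.

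Several genes had more members with PDGF-AA. Hspg2, which encodes the basement membrane proteoglycan perlecan, had 13 members of 15 peaks with PDGF-AA and 4 of 11 without ligand, and the edges of exons 59, 69, 95 and 96 that were occupied in the untreated list were occupied in both. Zmiz1, which encodes a transcriptional coregulator, had 7 members of 13 peaks with PDGF-AA, all partnered across 4 junctions, and 0 of 4 without. Flna, whose product cross-links actin, had 6 members of 8 peaks with PDGF-AA and 0 of 5 without ligand. All 6 Flna members paired, across exons 8 and 9, 14 and 15, and 40 and 41, with pieces of 12 to 87 nt. Ltbp2, which encodes a microfibril-associated protein, had 6 members of 13 peaks with PDGF-AA and 0 of 6 without. Each of these genes also had untreated peaks, so it was bound in both lists.

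Other genes went the opposite way. Col5a1, a chain of fibrillar type V collagen, had 5 members of 8 peaks with PDGF-AA and 14 of 26 without ligand, and all 5 PDGF-AA edges were among the untreated ones. Untreated pairs that had no PDGF-AA counterpart joined exons 19 to 20, 40 to 41 and 46 to 47, with pieces of 40 to 61 nt. Col12a1, a fibril-associated collagen, had 5 of 10 members in the PDGF-AA list, none of them paired, and 9 of 10 in the untreated list, among them 4 pairs over exons 29 to 30, 41 to 42, 57 to 58 and 58 to 59. Col5a2, the partner chain of Col5a1, had 3 of 6 and 6 of 8, and Rrbp1, which encodes a ribosome-binding protein of the endoplasmic reticulum, 1 of 6 and 5 of 8, all at downstream edges. Zfp335, which encodes a zinc finger protein, had 1 of 3 PDGF-AA and 5 of 7 untreated peaks at exon edges, including a 19 nt exon 10 covered whole.

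Several cytoskeletal and signalling genes had members in both lists. Myh9 had 9 members with PDGF-AA and 10 without ligand, and Mapk8ip3, a scaffold of JNK signalling, 5 and 5. Arhgap23, a GTPase-activating protein, had 5 and 6, and Col6a3, another chain of type VI collagen, 4 and 5. Trio, a guanine nucleotide exchange factor, had 8 and 4, with the pairs of exons 32 to 33 and 35 to 36 in both lists. Actn1, which encodes alpha-actinin, and Myo9b, an unconventional myosin with a GTPase-activating domain, each had 6 and 4. Both Myo9b pairs, at exons 12 to 13 and 39 to 40, recurred in both lists.

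Regulators of RNA and of the ligand's pathway had members at 1 or a few junctions each. Srsf7, an SR protein close to Srsf3, was paired across exons 4 and 5, with pieces of 34 and 57 nt with PDGF-AA and 29 and 31 nt without ligand. Snrnp70, a component of the U1 particle that recognises 5′ splice sites, was paired across exons 3 and 4, with 60 and 45 nt with PDGF-AA and 42 and 41 nt without ligand. In Pcbp4, which encodes a poly(C)-binding protein, exon 2 of 24 nt was covered whole in both lists. Fgfr1, a receptor tyrosine kinase for fibroblast growth factors, had 4 members of 5 PDGF-AA peaks, paired across exons 6 and 7 and exons 11 and 12, and 0 of 3 untreated peaks. In Tsc2, an inhibitor of mTOR signalling, 2 PDGF-AA peaks paired across exons 11 and 12 and the 1 untreated peak was no member. Akt1, a kinase downstream of PI3K, had exon 10 of 129 nt covered whole with PDGF-AA and 114 nt of it up to the downstream edge without ligand. Pdgfra, the receptor of the ligand, had no member, with 0 PDGF-AA peaks and 1 untreated peak in all, and Srsf3 itself had no peak in either list.

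Exon length varied with the edge that was occupied. Exons of the same genes with no peak had a median length of 117 nt (PDGF-AA list) and 116 nt (untreated list), and exons with any member 117 and 111 nt. Exons with a member at the upstream edge only had a median length of 114 nt (PDGF-AA) and 99 nt (untreated). Of the exons with a member, 98% and 99.2% were coding over their whole length. Exons with only an interior peak were longer, 147 and 132 nt, and exons with members at both edges shorter, 65.5 and 59 nt, a difference to which the rule itself contributes because a short exon is more easily spanned. Exon length was a multiple of 3, which keeps the reading frame when an exon is skipped, for 56% and 56.3% of exons with both edges occupied, 44.1% and 46.3% of those with any member and 43% and 44.5% of those with no peak. Another coding transcript skipped 19.8% of exons with a member in each list, against 21.3% and 20.8% of exons with no peak. For exons with only an interior peak the share was lower, 14.5% (PDGF-AA) and 13.2% (untreated). Among exons with both edges occupied the skipped share was 25% and 23.9%, which rest on 100 and 71 exons.

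Sequence at the edges differed from that of peak-free exons of the same genes. Purines made up 67.3% (PDGF-AA) and 65.5% (untreated) of the last 10 exon bases where a peak stopped at the downstream edge only, against 58.4% in both lists in exons with no peak. They made up 64.8% and 65.9% of the first 10 bases where a peak stopped at the upstream edge only, against 52.9% and 53%. The intron began with GTAAG, the consensus start of a 5′ splice site, after 21% (PDGF-AA) and 19.1% (untreated) of exons with a member at the downstream edge only and after 28.4% and 26.5% of exons with no peak. Exons with only an interior peak had a like share, 21.7% and 21.8%, so the lower share was not limited to exons with members. The pyrimidine share of the 20 bases before the AG of the 3′ splice site varied little, 74% and 74.1% before upstream-edge members and 74.7% before exons with no peak in both lists.

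Purine-rich hexamers were counted on the transcript strand, overlapping occurrences included, in members and in windows of the same length at the same edge of peak-free exons. GAAGAA occurred 5.09 (PDGF-AA) and 4 (untreated) times per kb in downstream-edge members, against 1.18 and 1.22 per kb in the windows. In upstream-edge members it occurred 5.77 and 6.71 times per kb, against 1.21 and 1.27. Peaks inside exons had 5.49 (PDGF-AA) and 5.54 (untreated) per kb. PDGF-AA members were near that value at both edges, whereas untreated members were lower at downstream and higher at upstream edges. At least 1 GAAGAA was present in 18% of PDGF-AA and 13.8% of untreated downstream-edge members and in 5.01% and 5.05% of windows. The hexamers AGAAGA and AAGAAG, which overlap it, gave similar ratios. The hexamers examined had been picked from these same libraries, so their density is a description.

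CACACA, another hexamer examined, went in opposite directions in the lists at downstream edges. With PDGF-AA it occurred 0.308 times per kb in members, below the 0.361 of the windows. Without ligand it occurred 0.504 times per kb, above the 0.309 of the windows. At least 1 CACACA was present in 1.44% (PDGF-AA) and 2.21% (untreated) of these members and in 1.63% and 1.29% of windows. GAAGCG occurred 0.538 and 0.445 times per kb at downstream edges, against 0.213 and 0.196. Members were poor in T, which made up 13.3% (PDGF-AA) and 12.6% (untreated) of bases at downstream edges against 20.5% and 19.9% in the windows. Partnered and unpartnered members had 5.22 and 5 GAAGAA per kb at downstream edges in the PDGF-AA list and 4.82 and 3.7 in the untreated list. At upstream edges the unpartnered members had the higher density, with 5.2 per kb for partnered and 6.44 for unpartnered members in the PDGF-AA list and 6.35 and 7.15 in the untreated list.

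Some hexamers existed only once the exons were joined. Within the 5 bases on each side of a junction, AGAAGA spanned the junction in 26 of 526 PDGF-AA pairs (4.94%, 3.4 to 7.14%) and 10 of 219 untreated pairs (4.57%, 2.5 to 8.2%). At the other junctions of the same genes it did so in 0.984% and 0.66% of cases. GAAGAA spanned 16 PDGF-AA and 8 untreated junctions with pairs (3.04% and 3.65%), against 0.641% and 0.812% of the others, and CACACA spanned 0 in each list (Wilson upper limits 0.725% and 1.72%). The other junctions were not matched for base composition. Inside downstream-edge members AGAAGA was also denser, at 5.15 (PDGF-AA) and 3.97 (untreated) per kb against 1.16 and 1.17 in windows of peak-free exons. An excess particular to the joined RNA was not tested.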

How the data were processed

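The authors trimmed adapters, collapsed reads on their molecular identifiers, removed repeat-derived reads, aligned the rest end to end to GRCm39 with STAR, and found peaks with omniCLIP once per condition. Versions given by the submitters' processing notes are 1.18 for cutadapt and 2.7.9 for STAR; these notes list GRCm38 beside GRCm39. How reads split at exon junctions entered the peaks was not examined here. Deposited values are peak intervals with a gene and no score. The full PDGF-AA and untreated lists hold 8623 and 6607 rows; intervals listed under several genes were counted once. The lists of peaks unique to a condition were exactly the rows of genes absent from the other list and were not used.

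Samples were grouped by title. The study's methods describe the experiment as biological duplicates and list more mapped reads for the PDGF-AA library than for either untreated library taken singly. The untreated peak list pools both of its libraries, so this does not compare depth between the lists. Intervals were set against GENCODE M39 on GRCm39 (98.7% and 98.5% of peaks lay inside their named gene) with pysam 0.24.0, pandas 2.3.3 and scipy 1.17.1, and printed as deposited; sequences were read after moving them back 1 nt. The matching was tested on simulated peaks. With 1 pooled list per condition no test across samples was possible. Shares have Wilson 95% intervals. Named are the 10 genes with most members in each list, the 5 with the largest difference each way, the 10 widest junctions paired in both lists, Pdgfra, Srsf3 and up to 4 genes per gene group. The members, gene groups and hexamers were chosen with earlier results of these data known, and the patterns of the chaperone and ribosomal groups were corrected after values were seen because they also matched unrelated genes.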

Additional observations from a re-analysis of the deposited data

How the results depend on the processing

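No paired analysis was possible because each condition has 1 pooled peak list with no column per replicate, and for the same reason no library could be left out. A stricter peak threshold could not be tried, since the lists hold no scores. Of 78 alternative values, 56 stayed within the interval of the main value (counts, within 1.5 times) and 22 moved, and the order of the lists was the same under every alternative run for the result. Where recurrence was counted by shared edges, both lists had the same or nearly the same numerator. That order therefore follows from the number of edges per list and could hardly reverse. Requiring a peak edge exactly on the exon edge left 36 PDGF-AA and 17 untreated members (0.429% and 0.266% of peaks), as follows from the 1 nt shift of the deposited intervals. Member shares were 19.7% (PDGF-AA) and 14.6% (untreated) with exons of at most 200 nt, 22.8% and 16.8% with exons of any transcript, and 24.5% and 17.6% over genes with a peak in both lists, an alternative chosen after seeing the data. The partnered share was 47.4% and 35.7% without peaks under 20 nt, where the median PDGF-AA width was 47 nt, 58.3% and 45.5% when any peak on the adjacent exon counted, and 56.7% for PDGF-AA over genes bound in both lists. Recurrence in the other list was 39.5% (PDGF-AA) and 60.8% (untreated) by overlap of 1 nt, 34.1% and 54.9% by overlap of 50% of each width, and 34.9% and 54.7% over genes bound in both lists. Leaving out collagen genes, also chosen after seeing the data, moved none of the 4 results it was applied to. The depth behind each peak is unknown, so an edge without a peak may be bound below detection.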

Other observations

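A small number of edges faced a peak beyond an intervening exon. At 20 of 1042 downstream edges with PDGF-AA (1.92%) and 5 of 724 without ligand (0.691%), the next exon had no peak at its upstream edge but the exon after it did. With edges partnered on the next exon included, an upstream-edge peak lay 2 exons on for 4.03% and 2.62% of downstream edges. It lay 3 exons on for 2.02% and 1.93%. The shares of 1.92% and 0.691% leave out partnered edges, so they cannot be set against those 3 exons on. The direct junction from the exon with the occupied edge to the exon after next is annotated in another transcript of the gene for 9 of the 20 PDGF-AA and 1 of the 5 untreated cases. The genes named here were picked after their values were seen. In Trip10 a 27 nt exon lay between PDGF-AA pieces of 83 and 24 nt, in Mta1 a 51 nt exon between pieces of 49 and 46 nt, and in Hsf1, a heat shock transcription factor, an 84 nt exon between pieces of 84 and 65 nt, and all of these skips are annotated. In Tjap1 a 30 nt exon lay between PDGF-AA pieces of 60 and 43 nt, with an annotated skip, while the untreated list had an unannotated case around a 162 nt exon of the same gene. Col5a1 exons 6 and 8 were the only such edges found in both lists, but exon 7 between them carried a peak at its own downstream edge in both lists. Likewise, in the PDGF-AA case of Arhgap23 exons 18 and 20, the peak on exon 20 was paired with a peak at the end of exon 19. Whether any of these exons was skipped in the bound RNA was not tested.

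Across bins of exon length, members occupied 6.64 to 10.2% of exons with PDGF-AA and 7 to 9.44% without ligand. Of exons of 51 to 100 nt in genes with a member, 9.58% carried one with PDGF-AA and 9.44% without ligand, and of exons of 151 to 200 nt 8.72% and 7%. Exons of at most 50 nt carried a member in 65 of 979 cases in the PDGF-AA list (6.64%) and 56 of 661 in the untreated list (8.47%), and 31 and 23 of these were occupied at both edges.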
